A study of Mus musculus with 2 samples.

Results

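The paired immunoglobulin-like receptors of the mouse were followed here in bulk RNA of purified splenic Treg cells taken after islet transplantation. This RNA also held abundant markers of other cell types, so the values are not those of Treg cells alone. Members were found by gene symbol, as every gene named Pira and a number, together with Pirb and Lilrb4a. The rule found 8 members among the 20938 genes of the tables, namely Pira1, Pira2, Pira4, Pira6, Pira7 and Pira11, Pirb and Lilrb4a. The family was picked with the Pira values of these same libraries known, so its values are given as a description. Foxp3-Mettl14f/+ cKO mice and littermate controls each gave 1 RNA-seq library of Treg cells, purified from spleen 7 days after transplantation with a CD4+CD25+ bead kit. In the cKO mice Cre driven by the Foxp3 promoter removes a single floxed Mettl14 allele, so an intact allele remains. The sample labels call this genotype a Foxp3 knockdown and the controls wild type, whereas the methods give the littermate controls as Mettl14f/f. All recipients were made diabetic with streptozotocin and received BALB/c islets under the kidney capsule, and the sequenced mice had no treatment with monoclonal antibodies. How many animals gave each library and their age are not given in the sources used here. With 1 library per genotype, no difference below has a replicate check.

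PIR-A and PIR-B are cell surface receptors that share nearly the same extracellular part and bind MHC class I molecules. PIR-A proteins, encoded by several Pira genes, activate cells through the Fc receptor gamma chain, an adaptor with an activation motif. PIR-B, encoded by Pirb, carries inhibitory motifs in its tail that recruit the phosphatases SHP-1 and SHP-2. Lilrb4a encodes gp49B, another inhibitory receptor of the same superfamily. These receptors are best known on B cells, macrophages, dendritic cells, granulocytes and mast cells, rather than on T cells.

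Pirb, Pira1 and Pira2 lie in a cluster on the minus strand of chromosome 7, and their start regions are nearly the same sequence. Windows from 250 bases before to 50 bases after a start site, taken from RefSeq on GRCm38.p6, are shown because they let a reader see how little separates the activating from the inhibitory genes. The start site of the Pirb window is the outer end of the gene, while those of Pira1 and Pira2 lie 26 and 53 bases inside it. The Pirb window is chr7:3720333-3720632, the Pira1 window chr7:3739868-3740167 and the Pira2 window chr7:3845002-3845301, all read on the minus strand. Capitals mark the 8 positions where the Pirb base differs from both Pira genes.
Pirb: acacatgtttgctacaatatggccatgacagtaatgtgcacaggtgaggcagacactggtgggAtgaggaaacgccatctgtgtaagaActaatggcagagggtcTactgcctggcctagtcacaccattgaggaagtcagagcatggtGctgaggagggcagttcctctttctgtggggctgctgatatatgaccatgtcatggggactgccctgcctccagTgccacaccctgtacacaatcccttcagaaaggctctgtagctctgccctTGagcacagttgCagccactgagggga
Pira1: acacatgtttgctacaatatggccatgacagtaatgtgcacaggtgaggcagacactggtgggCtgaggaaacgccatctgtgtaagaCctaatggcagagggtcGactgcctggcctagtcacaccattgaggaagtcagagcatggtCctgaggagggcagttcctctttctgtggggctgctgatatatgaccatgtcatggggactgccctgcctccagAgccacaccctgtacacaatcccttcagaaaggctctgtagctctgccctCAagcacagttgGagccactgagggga
Pira2: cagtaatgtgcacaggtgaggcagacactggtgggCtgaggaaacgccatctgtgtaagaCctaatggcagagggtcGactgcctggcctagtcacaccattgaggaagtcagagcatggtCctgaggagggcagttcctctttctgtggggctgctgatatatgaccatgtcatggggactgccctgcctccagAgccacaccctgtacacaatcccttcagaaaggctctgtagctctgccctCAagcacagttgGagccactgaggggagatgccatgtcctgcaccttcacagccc
Pirb and Pira1 shared 292 of 300 aligned bases (97.3%), Pirb and Pira2 shared 264 of 272 (97.1%), and Pira1 and Pira2 were identical over 272 aligned bases. Each window held the letters GAGGAA 3 times, counting both strands. Of 32851 RefSeq windows of 300 bases, 28.3% held these letters at least once and 0.685% at least 3 times. The 3 windows are nearly the same sequence, so their counts are not separate observations. The windows of Lilra6 and Gm14548, further genes of this cluster, also held the letters 3 times, and that of Lilr4b, on chromosome 10, 0 times. A match of letters is a description and not a binding site.

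RefSeq places Pirb on chromosome 7 from 3712505 to 3720382, Pira1 from 3731626 to 3739943 and Pira2 from 3836808 to 3845104, each as a protein-coding gene. GENCODE vM21 lists the Pira1 place as Gm15922, a polymorphic pseudogene. Lilrb4a lies apart, on the plus strand of chromosome 10 from 51490898 to 51496613. The symbols Pira4, Pira6, Pira7 and Pira11 were not matched in these annotations and are given by name. The likeness extends into the transcripts. The Pira1 and Pira2 transcripts, each of 3462 bases, were 99.5% identical and shared an unbroken run of 1727 bases. Only 8.70% of the words of 50 bases in the Pira1 transcript and 6.04% of those in Pira2 were found in no other gene of GENCODE vM21. For the Pirb transcript of 3824 bases this share was 62.7%, and at a word length of 100 bases it was 75.4%. Values of single Pira genes are therefore uncertain, because reads of near-identical copies can be split among them in ways the counting decides. Against GENCODE vM21, Pirb has more sequence of its own than Pira1 or Pira2. How much of it is shared with Pira4, Pira6, Pira7 and Pira11 was not tested, as these symbols were not matched there. The Lilrb4a transcript was 96.6% identical to that of its neighbour Lilr4b, and 0% of its words were found in no other gene, since the read-through gene Gm49339 covers it. The read length and the counting rule are not given in the sources used here.

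The libraries held 20239325 (control) and 18327535 (cKO) recovered reads. A floor of 3 reads equals a value of 2.90 in the former and 3.41 in the latter. Levels are the deposited values, which are reads divided by 1 size factor per library. Changes are the log2 of the cKO value plus 1 over the control value plus 1, which understates the change of low genes. The 95% intervals are exact Clopper-Pearson intervals. They cover no more than counting error, as reads were not tagged with molecular identifiers and may repeat a molecule. Mettl14, the targeted gene, had values of 917 and 741 in the control and cKO libraries, a log2 change of -0.31 (-0.45 to -0.16). Foxp3, which the label names, had 1497 and 1548, a log2 change of 0.05 (-0.06 to 0.15). Of 16659 genes with a mean value of at least 1, 17.2% had a cKO value at least 1.5-fold above the control value and 24.2% had one at least 1.5-fold below it. Of the genes past 1.5-fold 41.6% were higher, and 59.3% were higher after the libraries were scaled to equal sums of T cell core genes.

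All 8 members passed the filter on low values. On the deposited scale the cKO value was above the control value by at least 1.5-fold in 4 of them and below it by as much in 2, against the background of 17.2% and 24.2%. An exact binomial test on the reads, which compares libraries rather than genotypes, called 14.3% of 14863 genes higher and 18.1% lower. The members were chosen from this contrast, so nothing is read from the comparison with the background. The median log2 change of the 8 members was 0.63, also with Pira4 set at its bound, and that of all genes past the filter was -0.04.

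The activating Pira genes did not move together. Pira2 had a control value of 332 (343 reads) and a cKO value of 985 (866 reads). Its log2 change was 1.57 (1.39 to 1.75). Pira1 had values of 281 and 769 from 290 and 676 reads, a log2 change of 1.45 (1.25 to 1.66). These near-identical genes thus had overlapping intervals, and of the scalings tried only that on B cell markers put both below 0, although without Lyz2 the macrophage and monocyte scaling left Pira1 at 0.019 and Pira2 at 0.13. Pira11 had values of 167 and 1045 from 173 and 919 reads. Its log2 change of 2.64 (2.41 to 2.89) was the largest of the members, and it stayed above 0 under all 8 other scalings tried. Pira6 had 284 and 354 from 294 and 311 reads, a log2 change of 0.31 (0.08 to 0.55), which is under 1.5-fold and turned negative with B cell, macrophage or granulocyte markers set equal.

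Pira4 and Pira7 went the other way. Pira4 had a value of 211 from 218 reads in the control library and 0 reads in the cKO library. Set at the floor of 3 reads in the cKO library it would be 61.8-fold lower, with the control reads taken as exact. The exact interval of its log2 change had an upper end of -5.64. Pira7 had a value of 102 from 105 reads in the control library and 1.14 from 1 read in the cKO library, a ratio of 0.0112 with a log2 interval of -11.80 to -3.97. Both were lower under every scaling tried, but for Pira4 this was fixed beforehand, since a scaling leaves a value of 0 at 0. For Pira7 it rests on 1 read in the cKO library. Of 9579 genes with at least 200 control reads, 2 had 0 cKO reads, and Pira4 is 1 of them. In the other direction, of 9308 genes with at least 200 cKO reads, 2 had 0 control reads. The family was picked with these values known, so nothing is read from the counts. In the plot of levels, Pira4 and Pira7 are the members whose cKO points drop away from the control points.

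**Figure D1:**
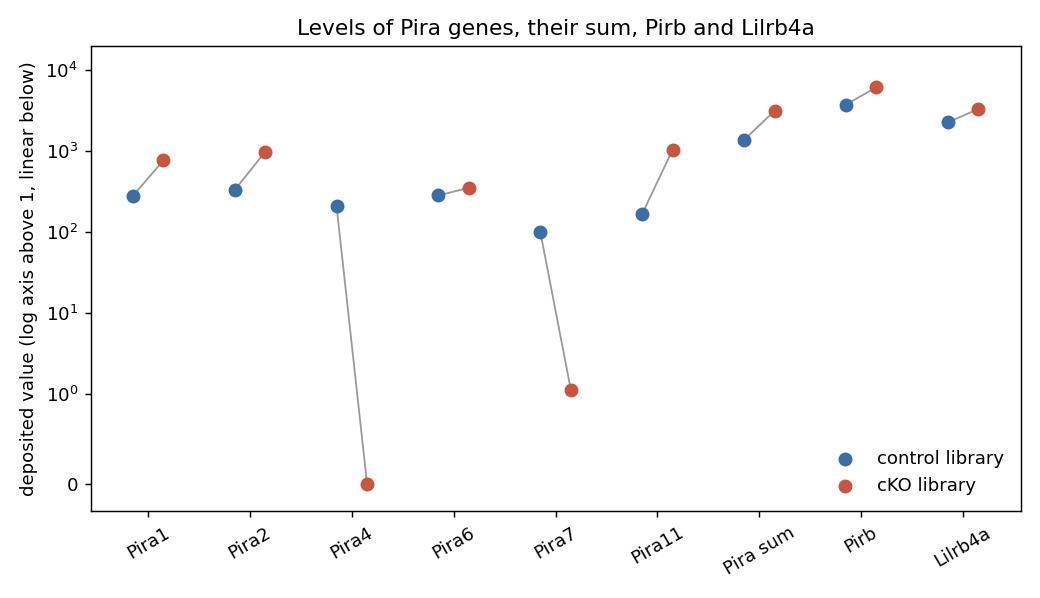
Deposited values of the 6 Pira genes, their sum, Pirb and Lilrb4a in the control library (blue) and the cKO library (red), with 1 library per group and no error bars; the vertical axis is logarithmic above 1 and linear below. Pira4 goes from 211 to 0 and Pira7 from 102 to 1.14, while the Pira sum goes from 1377 to 3153; the sum was lower in the cKO library with B cell markers, or macrophage and monocyte markers other than Lyz2, set equal.

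Summed over the 6 genes, Pira had a control value of 1377 (1423 reads) and a cKO value of 3153 (2773 reads). The summed level was 2.29-fold higher in the cKO library, a log2 change of 1.20 (1.10 to 1.29). The sum rested in good part on Pira11: without it the log2 change was 0.80. Without Pira2 it was 1.05, and without Pira4, which had 0 reads in the cKO library, 1.43. Pira1, Pira2 and Pira6 together changed by 1.23 (1.12 to 1.35). Pira4, Pira7 and Pira11 together, a grouping chosen after their values were seen, changed by 1.12 (0.97 to 1.29) from values of 480 and 1046, although Pira11 was higher and the other two were lower. Adding Lilra6, whose older symbol in RefSeq is Pira3, gave 1.15.

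The division of Pira reads among the 6 genes does not depend on any scaling between the libraries. In the control library no gene held more than 24.1% of them, the share of Pira2. In the cKO library Pira11 held 33.1% (95% exact Clopper-Pearson interval 31.4 to 34.9) against 12.2% (10.5 to 14.0) in the control library. Pira2 held 31.2% against 24.1% and Pira1 24.4% against 20.4%. The share of Pira6 was 11.2% (10.1 to 12.4) against 20.7% (18.6 to 22.9). Pira4 went from 15.3% to 0 of 2773 reads, which allows a share of up to 0.108% by the floor of 3 reads and 0.133% by the exact interval, and Pira7 from 7.38% to 0.036%. Pira4, Pira7 and Pira11 as a group held 34.9% (32.4 to 37.4) in the control library. In the cKO library they held 33.2% (31.4 to 35.0), and the intervals overlap. The group joins genes that went opposite ways and was chosen after their values were seen, so nothing is read from its joint share. Whether the reads of these copies were assigned in the same way in both libraries was not tested.

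**Figure D2:**
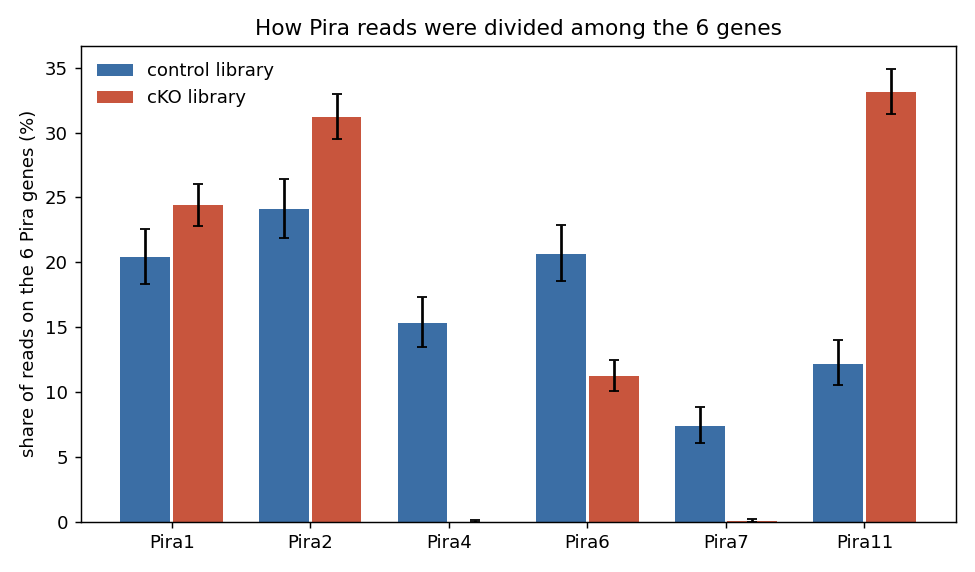
Percent of all reads on the 6 Pira genes that each gene held in the control library (blue, 1423 reads) and the cKO library (red, 2773 reads); bars are exact 95% Clopper-Pearson intervals. Pira11 goes from 12.2% to 33.1%, whereas Pira4 goes from 15.3% to 0 and Pira7 from 7.38% to 0.036%.

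Pirb, the inhibitory partner, was the most abundant member by deposited value in both libraries. Its value was 3760 (3887 reads) in the control and 6168 (5424 reads) in the cKO library. It was 1.64-fold higher in the cKO library, a log2 change of 0.71 (0.65 to 0.77), and it was lower when B cell or macrophage and monocyte markers were set equal. Lilrb4a had values of 2269 and 3325 from 2345 and 2924 reads, a log2 change of 0.55 (0.47 to 0.63), under 1.5-fold on the deposited scale. Scaled to T cell core genes it was 0.85 and past 1.5-fold, and with B cell or macrophage and monocyte markers set equal it was negative. Lilr4b, which encodes gp49A without the inhibitory tail and lies beside Lilrb4a, had values of 1563 and 2685 and a log2 change of 0.78 (0.69 to 0.87). Because both transcripts are nearly the same, their sum was also taken, and it changed by 0.65 (0.59 to 0.71).

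Levels between genes were compared per kb of transcript. On that scale the value of Lilrb4a was 1643 in the control and 2408 in the cKO library, that of Pirb 983 and 1613, and that of Lilr4b 851 and 1462. Lilra6 followed with 149.7 and 291, Pira2 with 95.8 and 284, and Pira1 with 81.0 and 222. The order was the same in both libraries, and Lilrb4a, Pirb and Lilr4b lay above Pira1 and Pira2. In the cKO library Lilra6 and Pira2 were nearly level.

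Within each library, the balance of activating to inhibitory receptor reads can be read without any scaling. There were 0.366 Pira reads per Pirb read in the control library (0.344 to 0.389) and 0.511 in the cKO library (0.488 to 0.535). The ratio was thus higher in the cKO library by 0.48 on the log2 scale (exact conditional interval 0.37 to 0.59). Without Pira2, which had the most Pira reads over both libraries, the log2 change of the ratio was 0.34. Without Pira11, which had the most in the cKO library, it was 0.088, but that sum keeps Pira4 and Pira7, which were lower. Pira1, Pira2 and Pira6 together changed by 1.23 on the deposited scale, against 0.71 for Pirb. Against Pirb and Lilrb4a together the ratio of all Pira reads was 0.228 and 0.332. The ratio of Lilrb4a to Pirb moved less, from 0.603 to 0.539, a log2 change of -0.16 (-0.26 to -0.06). These ratios take reads as they were assigned to genes, and the Pira and Pirb transcripts share sequence: 22.9% of the words of 50 bases in Pira2 also occur in Pirb.

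**Figure D3:**
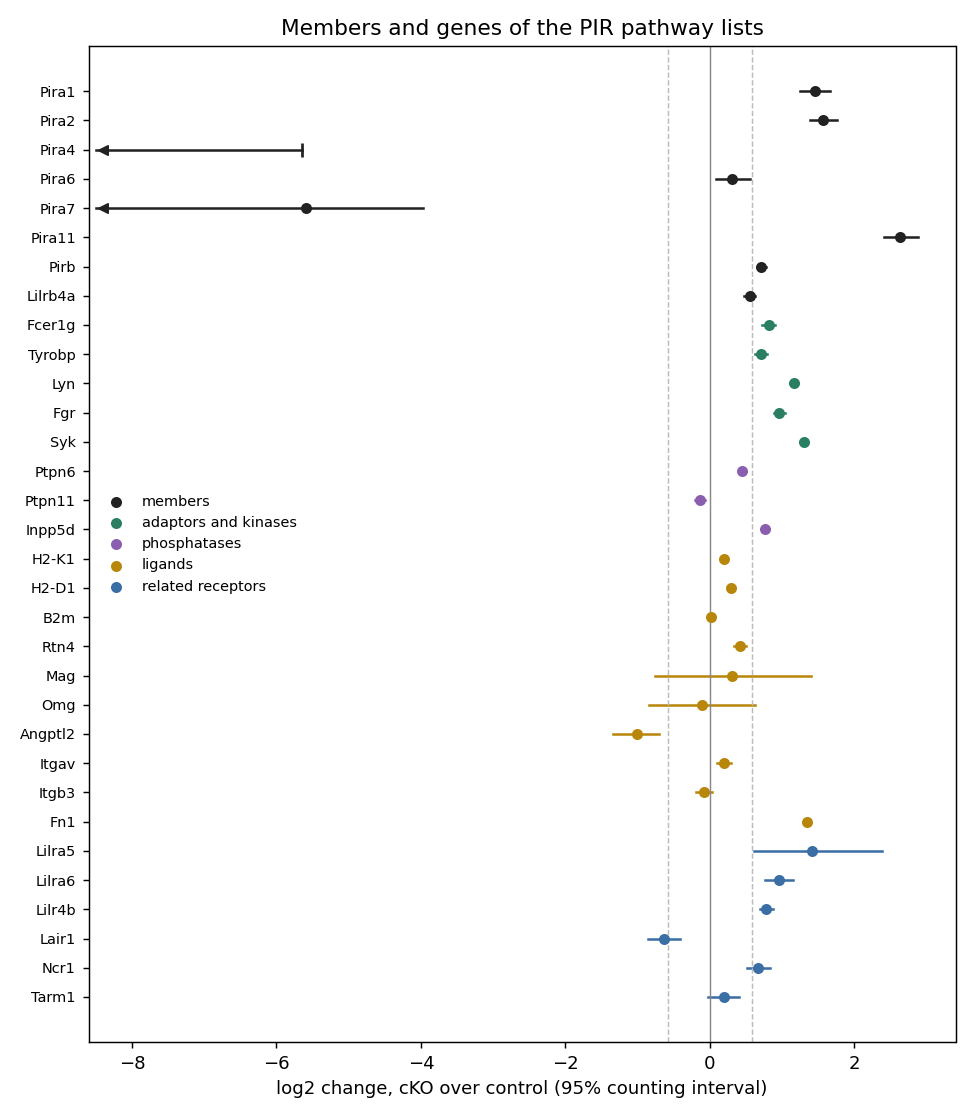
Log2 change of each member and of the genes in 4 pathway lists, cKO library over control library on the deposited scale; points are the values, lines are exact 95% counting intervals, arrows mark intervals that run off the axis, Pira4 has no point because it has 0 reads in the cKO library, and dashed lines mark 1.5-fold. The 5 adaptor and kinase genes lie between 0.70 and 1.30, but all 5 were lower with B cell markers, or macrophage and monocyte markers other than Lyz2, set equal, and 3 of them were lower with all macrophage and monocyte markers set equal.

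The genes that carry the signal of these receptors were taken from lists written from general knowledge. On the deposited scale all 5 adaptor and kinase genes reported were past 1.5-fold toward the cKO library, against 17.2% of all genes. Their median log2 change was 0.96 against -0.04 for all genes. With B cell markers set equal 0 of 5 were above 0. With macrophage and monocyte markers set equal 2 of 5, Lyn and Syk, were above 0, but 0 of 5 when Lyz2 was left out of these markers. Fcer1g, which encodes the Fc receptor gamma chain used by PIR-A, had values of 1523 and 2673, a log2 change of 0.81 (0.72 to 0.91). Tyrobp, the adaptor DAP12, changed by 0.70 (0.62 to 0.78). Lyn, the Src family kinase that phosphorylates PIR-B, had values of 3899 and 8754 and changed by 1.17 (1.11 to 1.22). Syk, the kinase that binds activation motifs, changed by 1.30 (1.25 to 1.35). Fgr, a Src family kinase of myeloid cells, changed by 0.96.

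Of the 3 inhibitory phosphatase genes, 1 was at least 1.5-fold higher on the deposited scale, against 17.2% of all genes. Inpp5d, which encodes SHIP-1, changed by 0.76 (0.70 to 0.81). Ptpn6, which encodes SHP-1, had values of 6773 and 9247 and changed by 0.45 (0.40 to 0.50), while Ptpn11, which encodes SHP-2, changed by -0.13 (-0.20 to -0.06). With macrophage and monocyte markers set equal all 3 were below 0, and scaled to T cell core genes all 3 were above 0.

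Of 10 ligand genes, 1 was past 1.5-fold toward the cKO library and 1 toward the control library, against 17.2% and 24.2% of all genes. H2-K1 and H2-D1, MHC class I genes whose products are bound by PIR-A and PIR-B, changed by 0.20 (0.18 to 0.22) and 0.30 (0.27 to 0.32), and B2m, their light chain, by 0.02 (-0.0048 to 0.05). Angptl2, a secreted ligand of PIR-B, had values of 279 and 138, a log2 change of -1.01 (-1.34 to -0.71). Fn1, fibronectin, had 6413 and 16232 and changed by 1.34 (1.30 to 1.38); it was lower with B cell markers, or macrophage and monocyte markers other than Lyz2, set equal. Rtn4, which encodes the myelin inhibitor Nogo, changed by 0.42, and the other myelin genes, Mag and Omg, had at most 38 reads in a library. Itgav and Itgb3, the subunits of the integrin bound by gp49B, changed by 0.20 and -0.08. With macrophage and monocyte markers set equal 9 of the 10 ligand genes were below 0, and with B cell markers set equal all 10 were.

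Among the other immunoglobulin-like receptors of the same 2 loci, 8 of 10 listed symbols were in the tables and 6 passed the filter. Of these 6, 4 were at least 1.5-fold higher on the deposited scale, 1 was at least 1.5-fold lower and 1 was under 1.5-fold. Over all genes 17.2% were higher and 24.2% lower by as much. Lilra6 had values of 341 and 663, a log2 change of 0.96 (0.76 to 1.15). Lair1, an inhibitory receptor for collagen, had 472 and 305 and changed by -0.63 (-0.85 to -0.41). Ncr1, the natural killer cell receptor NKp46, changed by 0.67, and Tarm1, an activating receptor of granulocytes, by 0.19 (-0.03 to 0.41). Oscar and Gp6 had 0 reads in both libraries. With B cell markers set equal all 6 were below 0, and with macrophage and monocyte markers set equal 5 were, Lilra5 being the exception.

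Other families built on the same plan, with activating and inhibitory members of like sequence, were set beside Pira and Pirb. Of 17 such genes, 12 were past 1.5-fold toward the cKO library on the deposited scale, against 17.2% of all genes. Toward the control library 2 were, including Cd200r2 on 4 and 0 reads, against 24.2% of all genes. The median log2 change of the 17 was 0.76 against -0.04 for all genes. With B cell markers set equal 0 of 17 were above 0. With macrophage and monocyte markers set equal 5 were, or 1 without Lyz2 among them. In the SIRP family the inhibitory Sirpa changed by 0.69, and the activating Sirpb1a, Sirpb1b and Sirpb1c by 1.06, 1.49 and 1.36. In the PILR family the inhibitory Pilra changed by 0.997 (0.88 to 1.11), the activating Pilrb1 by 1.10 (0.81 to 1.41) and Pilrb2 by 0.91. In the CD300 family the inhibitory Cd300a and Cd300lf changed by 1.29 and 0.98, and the other members listed by less, Cd300lb by 0.71, Cd300ld by 0.76, Cd300c2 by 0.54 and Cd300c, with 11 and 16 reads, by 0.72. No gene of these 3 families had 0 reads in either library. Cd200r3, an activating receptor of basophils and mast cells, had values of 105.4 and 21.6, a log2 change of -2.24 (-3.07 to -1.58). Cd200r2 had 4 and 0 reads, and the interval of its log2 change reached up to 0.83. It is thus not shown to be lower, nor past 1.5-fold. In the same family Cd200r1 changed by 0.14 (-0.12 to 0.39) and Cd200r4 by 0.55 (-0.02 to 1.15).

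The genes that surround the cluster on chromosome 7 were listed after the values of the members were known. From Oscar to Ncr1, from 3609813 to 4345184, 22 genes of RefSeq were in the tables, of which on the deposited scale 9 were at least 1.5-fold higher and 2 lower, against 17.2% and 24.2% of all genes. The 9 include Gm14548, a further gene of the cluster with 5 and 7 reads, and Cdc42ep5 with 0 and 6 reads. The 9 genes between Oscar and Pirb, such as Cnot3, a subunit of the CCR4-NOT deadenylase, and Rps9, a ribosomal protein gene, had log2 changes between -0.29 and 0.67, and 1 of them, Tsen34 at 0.67 (0.39 to 0.96), was past 1.5-fold, with an interval that spans that of Pirb. Rps9, the last of these genes before Pirb, changed by 0.16 (0.13 to 0.18). On the other side, Lilra6 at 0.96 and Lilra5 at 1.41 lay above Pirb, Lilra5 with an interval of 0.62 to 2.38 that spans that of Pirb. Lair1 at -0.63, Leng8 at 0.25 and Leng9 at 0.23 lay below Pirb, and Ttyh1 had 18 and 0 reads. Gm14548 at 0.62 (-1.15 to 2.72) and Ncr1 at 0.67 (0.51 to 0.83) had intervals that span that of Pirb.

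**Figure D4:**
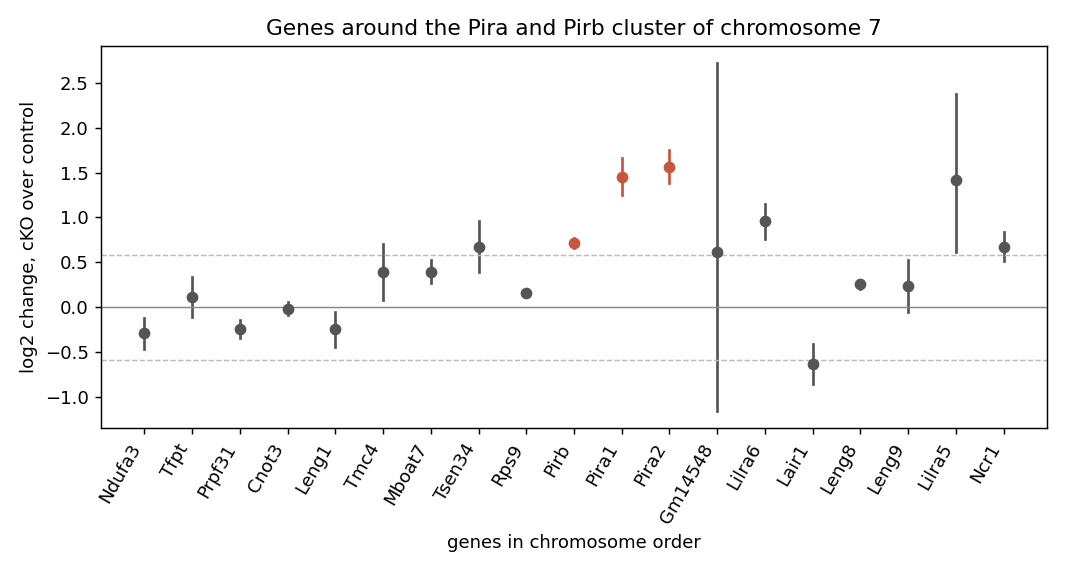
Log2 change, cKO over control on the deposited scale, of 19 genes from Ndufa3 to Ncr1 in chromosome order, with exact 95% counting intervals; Pirb, Pira1 and Pira2 are red, dashed lines mark 1.5-fold, and 3 genes with 3 or fewer reads in a library are left out. Pirb at 0.71, Pira1 at 1.45 and Pira2 at 1.57 lie at or above their left-hand neighbours, which reach 0.67 with an interval that spans Pirb. To the right Lilra6 and Lilra5 lie above Pirb, Lilra5 with an interval that spans it, while Lair1, Leng8 and Leng9 lie below. The points of Gm14548 and Ncr1 also lie below, but their intervals span Pirb. Pira1 and Pira2 were lower with B cell markers set equal, and Pirb with B cell or macrophage and monocyte markers set equal.

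Markers of several other cell types differed between the libraries. B cell, macrophage and monocyte, and CD8 T and natural killer cell markers lay mostly toward the cKO library, and erythroid markers mostly toward the control library. Mast cell, basophil and eosinophil markers went both ways. In bulk samples fewer cells of a type and less RNA per cell cannot be told apart. The T cell core genes, present in both libraries, had a summed value of 71785 in the control and 58234 in the cKO library, a log2 change of -0.30, with 0 of 15 at least 1.5-fold higher and 2 lower. Of 9 Treg genes 2 were higher and 2 lower, and none was at 0. The 15 B cell markers found were all at least 1.5-fold higher, and their summed value was 10089 in the control and 54082 in the cKO library, a log2 change of 2.42 (2.39 to 2.45). Over both libraries Pax5 had the most reads among them, 1065 and 7778, and Ms4a1 had the most in the control library, 1227 against 4017 in the cKO library. Of 18 macrophage and monocyte markers 17 were higher, and their summed value went from 28177 to 57066, a log2 change of 1.02 (0.997 to 1.04). Lyz2, with 21710 and 33118 reads, made up most of that sum. Without it the other 17 went from 7175 to 19406, a log2 change of 1.44, and the median change of the 18 markers was 2.28. Among them, Marco had 0 and 20 reads. Of 16 granulocyte markers 4 were higher and 3 lower, with a summed value of 272222 and 374442 and a log2 change of 0.46. In both libraries this sum lay above that of the T cell core genes, so values here describe the whole preparation rather than Treg cells alone. The most abundant granulocyte markers were S100a9, Ngp, Ltf and S100a8.

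The remaining lists moved in both directions. Of 9 dendritic cell markers 3 were higher and 0 lower, with summed values of 3038 and 4168. Of 9 mast cell, basophil and eosinophil markers 2 were higher and 4 lower, with 4567 and 3112. Of 7 CD8 T and natural killer cell markers 5 were higher and 0 lower, with 4016 and 8833. Of 8 erythroid markers 0 were higher and 7 lower, with 17226 and 7626. Marco was the only marker at 0 in a library in these lists.

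Setting each marker sum equal between the libraries shows where the receptors stand against it. With the granulocyte markers set equal, the summed Pira change was 0.74, that of Pirb 0.25 and that of Lilrb4a 0.092. With the macrophage and monocyte markers set equal, the values were 0.18, -0.30 and -0.47, and without Lyz2 among these markers they were -0.24, -0.72 and -0.88. With the B cell markers set equal, they were -1.23, -1.71 and -1.87. The median over the filtered genes, -0.04 as deposited, was -0.50, -1.05, -1.46 and -2.39 under them, since each scaling shifts all genes alike. The receptors thus differed between the libraries by less than the summed B cell markers did, Pirb and Lilrb4a also by less than the macrophage and monocyte markers, and the Pira sum by more than the granulocyte markers and by less than the macrophage and monocyte markers other than Lyz2. The part of these cells in the receptor values was not tested.

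**Figure D5:**
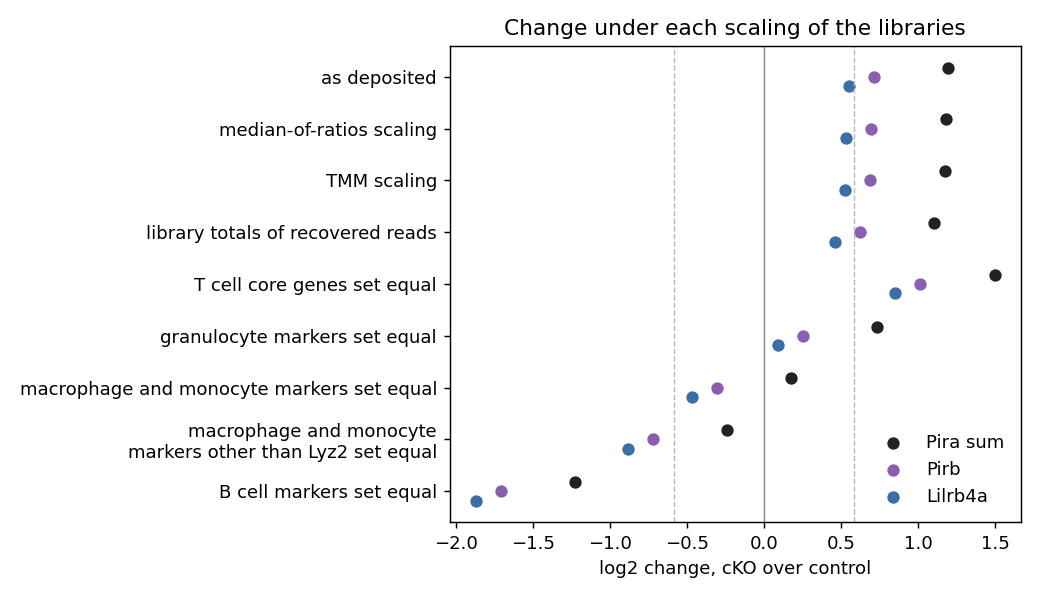
Log2 change, cKO over control, of the Pira sum (black), Pirb (purple) and Lilrb4a (blue) as deposited and under 8 other scalings of the libraries; dashed lines mark 1.5-fold. A scaling moves the 3 alike, so their order is fixed; the sign changes for Pirb and Lilrb4a with macrophage and monocyte markers set equal, and for all 3 with those markers other than Lyz2 or with B cell markers set equal.

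The levels of both libraries were also used to name the nearest genes, by the distance of log2 values plus 1 over the 2 libraries. Nearest to the Pira sum were Sat1, Ralgps2, Pik3ap1, Themis2 and Pou2f2, at distances of 0.038 to 0.126. Nearest to Pirb were Ptpn1, Ncoa2, Tnrc18, Tab2 and Zmiz1, at 0.026 to 0.104. With 2 libraries such a likeness holds no more than a like level and a like change.

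METTL14 is part of the enzyme that writes m6A, most often in the letters GGACT and close relatives, so these letters were counted in the transcripts. The Pirb transcript held 7, the Lilrb4a transcript 5, the Pira1 transcript 2 and the Pira2 transcript 3. Per kb this was 1.83 for Pirb, 3.62 for Lilrb4a, 0.578 for Pira1 and 0.867 for Pira2, where the median of 21405 coding transcripts was 1.02 and 89.0% held the letters at least once. Of those transcripts 15.2% had as many per kb as Pirb or more, 58.9% as Pira2 and 75.3% as Pira1. For Lilrb4a, with a transcript of 1381 bases, it was 0.934%. No m6A was measured in these libraries, and the count of letters does not say whether a site is methylated.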

How the data were processed

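RNA-seq of splenic Treg cells gave 1 table of gene values per library, 1 from the cKO mice and 1 from littermate controls. Reads were aligned by the authors to mm10, with TopHat per the methods, while the submitters' processing notes name bcl2fastq 2.0, STAR, StringTie and DESeq2; the annotation and the counting rule are not given in the sources used here. The deposited values are a signal, read counts divided by a size factor: 100% of them were whole multiples of the smallest value, within 0.001 reads. Dividing by that value recovered the reads. Genes were compared with a pseudocount of 1, a minimum mean of 1 and a fold of 1.5, which the methods give. A two-sided exact binomial test with Benjamini-Hochberg adjustment (adjusted p under 0.1, at least 10 reads in both libraries together, TMM totals) was an alternative. Genes named are the members, the pathway lists, the most abundant markers, markers at 0 and the nearest genes. A gene of the adaptor and kinase list is not reported here. Members and lists were chosen with earlier results of these data known. Sequences came from RefSeq on GRCm38.p6 (promoter windows) and GENCODE vM21 (longest coding transcript; for Pira1 the transcript at its place); of 8 members, 4 had a position in RefSeq. Python 3.11.15, numpy 2.4.6, scipy 1.17.1, pandas 2.3.3, matplotlib 3.10.9, Biopython 1.88, R 4.3.3 and edgeR 4.0.16 (TMM factors only) were used.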

Additional observations from a re-analysis of the deposited data

How the results depend on the processing

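No paired analysis was possible because 1 library stands for each genotype, and no library could be left out. With a pseudocount of 0.1 or 5, and with the TMM or median-of-ratios scaling, the changes of the Pira sum, Pirb and Lilrb4a stayed within their counting intervals. With library totals Pirb was at 0.62 and Lilrb4a at 0.46, both on the same side of 1.5-fold. Scaled to T cell core genes the Pira sum was at 1.50, Pirb at 1.02 and Lilrb4a at 0.85, where the median of all genes was 0.26. With granulocyte markers set equal they were at 0.74, 0.25 and 0.092, with macrophage and monocyte markers at 0.18, -0.30 and -0.47, with those other than Lyz2 at -0.24, -0.72 and -0.88, and with B cell markers at -1.23, -1.71 and -1.87. Each such scaling shifts all genes together by the change of its marker sum. Without Pira2 the Pira sum was at 1.05 and its ratio to Pirb at 0.34; with only the Pira genes above 0 in both libraries, which leaves out Pira4, they were at 1.43 and 0.72. Without Pira11 they were at 0.80 and 0.088. Adding Lilr4b moved Lilrb4a to 0.65; this, leaving out Lyz2 or Pira11 and the other groupings of Pira genes were chosen after seeing the data. Over all genes, 2864 were higher and 4028 lower; 1722 were higher at a fold of 2 and 4696 under that T cell scaling, and 2035 were lower at a minimum mean of 10 and 1904 among genes above 0 in both libraries. The share of higher genes among those past 1.5-fold, 41.6% as deposited, was 50.9% at that minimum mean and 53.4% among genes above 0 in both libraries. With 1 library per genotype the intervals hold counting error alone, and the spread between animals is unknown.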
